A study of Mus musculus with 30 samples.

Results

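The comparison described here set 5 numbered samples of kidney RNA from old control mice against 5 from young control mice. Its members are the arrays whose titles name old or young controls, 20 of the 30 arrays of the series. All mice were C57BL/6, an inbred laboratory strain, and total RNA of the kidney was measured. Young controls were 5 months old, old controls were 30 months old, and both groups had been fed the control diet. Mice of 30 months on a calorie-restricted diet form the other group of the series, and they entered the fit for the estimate of the spread, which changed some calls, as given below. Each numbered sample of a group was measured on 2 types of 1-colour oligonucleotide array, called the first and the second table below, with 5 old against 5 young arrays on each. The labels give neither the sex nor the substrain, and they do not say whether the 5 numbers of each group stand for different animals, so the p-values measure the spread between these samples, which may be technical. For brevity a numbered sample is called an animal below.

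The kidney filters blood and then recovers most of the filtrate, and the proximal tubule does much of that work with energy from mitochondrial oxidation of fatty acids and amino acids. Its distal segments adjust calcium, sodium and potassium, and secrete proteins such as kallikrein into the urine. Old mouse kidneys are known for leukocytes between the tubules, for growth of the interstitial matrix and for single tubules that show signs of injury.

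Values are intensities of probe sets (groups of short probes for 1 transcript), and changes are old minus young on the log2 scale with the standard error of the fit. Levels are printed as scaled intensity, and a signed number given for a gene is its change. A background floor was set on each table from its negative values, at 1103 on the first and 1815 on the second, and values under it were raised to it before log2 was taken, so that changes of dim genes are understated. The share of an array's values above the floor was 33.5% to 37.5% on the first table and 23.9% to 27.7% on the second. On the second table, targets with several probe sets marked i, f, s or r had young values in another order than the old ones. In 25 of 26 such pairs the order of the probe sets changed between young and old controls, and in 0 of 27 it changed between calorie-restricted and old controls, so the 255 probe sets of this class were left out. The same count on the first table was 0 of 23. Samples numbered 1 to 3 and samples numbered 4 and 5 stood apart in every group along the first principal component of the deviations from the group means, which held 37.3% of their variance. The labels do not say what this split is, and the changes within each set are given where they differ most.

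Genes measured on both tables give a check of the remaining young values of the second table. For 112 such genes the change on the first table correlated with that on the second with r = 0.797 across genes, which are not independent replicates and whose arrays come from the same animals. Genes with large changes, such as Ighm (1.825 and 3.655), weigh most in this r. All 9 genes that passed on either table had the same sign on both, and so had all 11 whose change was above 0.5 in size on both. Many genes with smaller changes differed in sign. Most of these read above 0 on the first table and below 0 on the second, such as Itga3 (0.41 and -0.23) and Sec61a1 (0.34 and -0.15). A few went the other way, such as Glg1 (-0.27 and 0.10). The size could differ, as for Ckb, the brain-type creatine kinase, with 1.05 ± 0.21 on the first table against 0.28 ± 0.20 on the second.

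**Figure D1:**
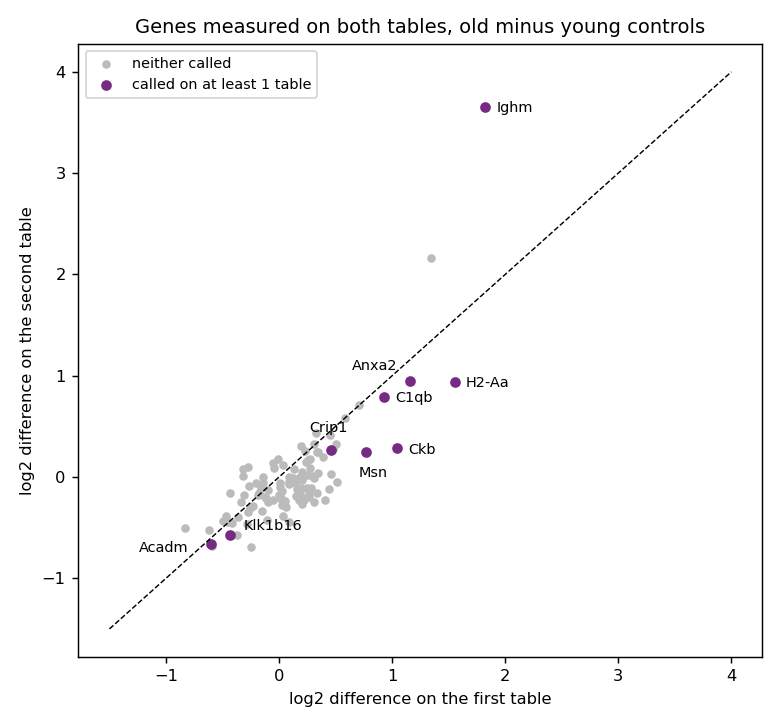
Change with age of 112 genes on the first table (horizontal axis, log2, old minus young) and on the second (vertical axis, same unit), by the brightest probe set of each gene on each table. The dashed line marks equal change, and the 9 named genes, which passed on at least 1 table, lie on the same side of 0 on both axes.

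Among the fixed markers used to check the tissue, those of the proximal tubule and the thick ascending limb that could be measured were above the floor and did not pass. The phosphate transporter Slc34a1 read 64860.4 ± 2872 (SD, n = 5) in young and 62973 ± 7749 in old controls, a change of -0.05 ± 0.12, and the water channel Aqp1 had a change of 0.02 ± 0.18. Both are proximal tubule proteins. Umod, made by the thick ascending limb, had changes of 0.22 ± 0.20 and -0.05 ± 0.34 on its probe sets, and Slc12a1 of the same segment one of 0.17 ± 0.15. The androgen-dependent proximal tubule gene Kap had a change of 0.06 ± 0.28 on the first table and -0.30 ± 0.35 on the second. Pecam1 and Fn1 did not reach the filter for tested probe sets, and Lrp2, Aqp2 and Havcr1 had no named probe set. Of the lists for other tissues, 0 of 6 tested red cell genes and 0 of 5 skeletal muscle genes passed, while 1 of 8 fat genes and 1 of 5 adrenal genes fell, Lpl and Fdx1, which the kidney also expresses. The summed intensity of the fat list lay between 33396 and 37290.0 in young and between 22059 and 39205 in old controls. That of the adrenal list lay between 15945 and 19268 in young and between 14202 and 16566 in old controls, and the adrenal genes Star and Cyp11a1 did not reach the filter.

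In all, 4433 probe sets were tested with limma and Benjamini-Hochberg adjustment over both tables, and 150 of them (3.38%) passed at 0.05. Of these, 96 (2.17%) were higher and 54 (1.22%) were lower in old controls. The values of all 5 old controls lay above those of all 5 young controls in 2.86% of the tested probe sets and below them in 2.53%. Among the 2668 named genes that were tested, each by its brightest probe set, 40 (1.50%) rose and 32 (1.20%) fell, and the median change was 0.00. Of these genes 50.2% read above 0 and 49.8% below it. These shares are the background for the counts of list members below. Genes of a list were measured in the same samples and are not independent. Counting every probe set of a gene, 44 named genes rose and 35 fell. The rises include 8 genes of the immunoglobulin, MHC and interferon lists and 36 others, of which Ighg2c is also an immunoglobulin heavy chain gene. Sizes of the rises ran from 0.46 to 4.99 and those of the falls from -0.45 to -1.58. All 150 probe sets had the same sign in numbers 1 to 3 as in numbers 4 and 5. They were called on these same samples together, which nearly ensures a shared sign, so this is no independent check. Leaving out 1 sample left the number that rose between 78 and 103 but moved the number that fell further. It was 32 without young control 2, 30 without young control 3, 34 without young control 5 and 34 without old control 3.

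**Figure D2:**
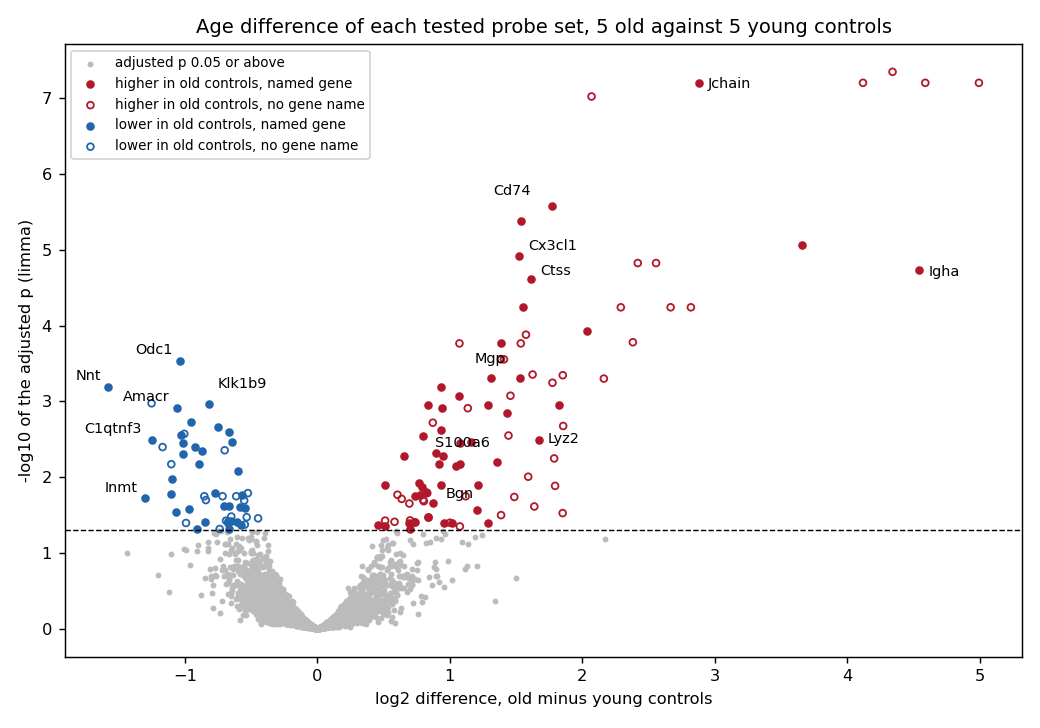
Change with age of each of the 4433 tested probe sets (horizontal axis, log2, old minus young) against the negative log10 of its adjusted p (vertical axis). The dashed line marks an adjusted p of 0.05; the 96 red probe sets above it reach larger changes than the 54 blue ones, and open circles have no gene name.

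Some mitochondrial enzymes fell, while most genes of the mitochondrial lists did not pass. Nnt, the transhydrogenase of the inner membrane that makes NADPH for the defence against peroxides, fell 2.99-fold, the largest fall of any named gene that was tested. Acat1, which splits acetoacetyl-CoA in ketone and isoleucine breakdown, fell 2.15-fold, and Acadm, the medium-chain acyl-CoA dehydrogenase of fatty acid oxidation, fell on both tables. Ndufb3, a subunit of complex I, and Tomm7, a subunit of the import channel of the outer membrane, fell as well. Of 46 respiratory chain and ATP synthase genes 44 had changes below 0, and 1 of them passed. In a piece of whole tissue, fewer cells of a type and less RNA per cell cannot be told apart, here and in all that follows.

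Nnt read 18854, 18102, 15329, 13693 and 12759.9 in young controls 1 to 5 and 7774, 7339, 6158, 3756 and 2915 in old controls 1 to 5. Every old control lay below every young one. The change was -1.58 ± 0.24 (adjusted p = 0.000641), with -1.30 among animals 1 to 3 and -2.0 among animals 4 and 5, and it passed in all 31 alternatives in which it could be tested. The C57BL/6J substrain is known to carry a deletion in Nnt, and the labels do not name the substrain of either group.

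Acat1 read 19983, 24171, 24475, 14663 and 19996 in young controls 1 to 5 and 14593, 7676, 11893, 6403 and 8853 in old controls 1 to 5. The groups did not overlap, although young control 4 and old control 1 stood almost level. Its change was -1.10 ± 0.24 (adjusted p = 0.0166). Acadm on the first table read 20245, 23679, 19385, 19839 and 24212 in young controls 1 to 5 and 16021, 12887, 14689, 13963 and 13102 in old controls 1 to 5, again without overlap. It fell by 0.60 ± 0.12 there (adjusted p = 0.00838) and by 0.67 ± 0.18 on the second table (adjusted p = 0.0481, and 0.0627 with the replicate number as a block). The fall of Acat1 did not pass without young control 3 (adjusted p up to 0.0509), and that of Acadm on the second table did not pass without young control 2, 3, 4 or 5, old control 2, 3, 4 or 5 or calorie-restricted mouse 1, 2, 4 or 5 (adjusted p up to 0.128).

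Amacr, the racemase that prepares branched fatty acids and bile acid precursors for oxidation, read 7315, 9715, 7794, 10205 and 10227 in young controls 1 to 5 and 4780.3, 4214, 4624, 4637 and 3370.3 in old controls 1 to 5. All old controls lay at about the same low level, and the fall was 1.06 ± 0.17 (adjusted p = 0.00122). Acad9, an acyl-CoA dehydrogenase that also helps to assemble complex I, fell by 0.71 ± 0.17, with 2 of 5 old controls at the floor, and did not pass without young control 2 or 3 or old control 2, 3, 4 or 5 (adjusted p up to 0.0795). Coasy, which completes coenzyme A, fell by 1.09 ± 0.23 (adjusted p = 0.0104), from 6186 ± 864 to 2998 ± 996. Vnn1, which releases pantothenate from coenzyme A breakdown and is a target of the fatty acid receptor PPAR alpha, went the other way. It rose by 1.02 ± 0.26 (adjusted p = 0.0401, and 0.0579 with the replicate block), and the call was lost without young control 2, 3, 4 or 5 or old control 1, 2 or 4 (adjusted p up to 0.11).

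Of the 35 tested genes of fatty acid oxidation, ketone bodies and peroxisomes, 4 fell and 1 rose, with a median of -0.09 beside 0.00 over all named genes. The background shares for named genes are the 1.20% and 1.50% above. The fourth gene that fell was Hsd17b11, a dehydrogenase found on lipid droplets. Other enzymes of the mitochondrial spiral did not pass, with Acadl at -0.11, Acadvl at -0.04, Cpt1a at -0.05 and Hadha at 0.30. The PPAR alpha targets Cyp4a10 and Cyp4a14 had a change of 0.72 and 0.96 and did not pass. Cyp4a31, of the same family of fatty acid hydroxylases, had 1 probe set that rose (0.77 ± 0.17, adjusted p = 0.0172) and 1 that did not pass (0.68, adjusted p = 0.256). These genes are near-identical, so their probe sets may share signal. The call of Cyp4a31 was lost without young control 2 (adjusted p up to 0.055).

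The respiratory chain and ATP synthase list had 46 tested genes, of which 44 read below 0, with a median of -0.41. Over all named genes 49.8% read below 0. The median was -0.36 in numbers 1 to 3, -0.42 in numbers 4 and 5 and -0.33 with quantile normalization. By complex, all 17 subunits of complex I read below 0 with a median of -0.41, and all 8 of complex III with a median of -0.51. Complex IV stood closer to 0, with 9 of 11 below and a median of -0.19, and ATP synthase had 10 of 11 below and -0.38. Ndufb3 was the member that passed. It read 32284, 34459, 37613, 34859.7 and 36662 in young controls 1 to 5 and 28328, 19972, 25067, 25112 and 19838 in old controls 1 to 5, a fall of 0.58 ± 0.14 (adjusted p = 0.0248) without overlap of the groups, and the call was lost without young control 2, 3 or 5 or old control 2 or 5 (adjusted p up to 0.0721) and with quantile normalization. Members with larger changes did not pass, among them Ndufa5 (-0.83, adjusted p = 0.0704), Cycs, the soluble electron carrier (-0.77, adjusted p = 0.0557, but 0.0258 with the number set as a term), and Uqcrq (-0.76, adjusted p = 0.0725).

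Around the respiratory chain, Tomm7 read 6937, 7323, 9163, 8582 and 9324 in young controls 1 to 5 and 6729.5, 3915, 5235, 4672 and 3982 in old controls 1 to 5, a fall of 0.77 ± 0.17 (adjusted p = 0.0162) without overlap. The citrate cycle and carrier list had 19 of 26 genes below 0 and a median of -0.21, and Nnt alone passed. The adenine nucleotide carrier Slc25a4 had a change of -0.46, the succinyl-CoA ligase subunit Suclg1 -0.45 and citrate synthase, Cs, -0.08. In the glutathione and redox list Nnt was again the 1 member of 35 that passed, and catalase (-0.31), Sod1 (-0.11) and Gpx1 (0.01) did not. The 12 tested glutathione transferases had a median of 0.23, with 0 called.

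**Figure D3:**
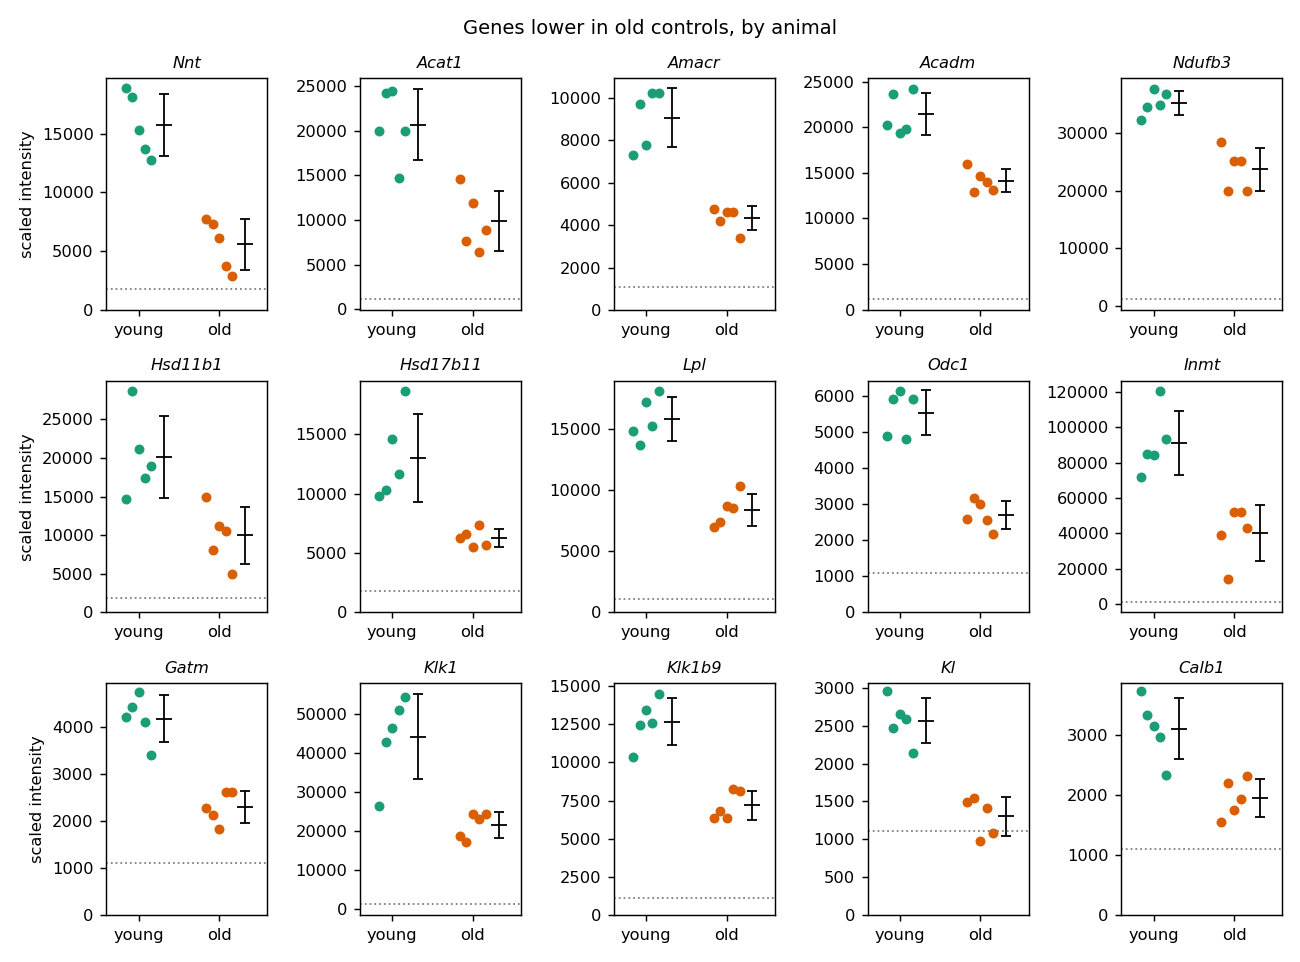
Scaled intensity (vertical axis, linear, from 0) of 15 genes that fell, with 1 point per animal in the order of its number and the group mean with its SD as a black bar. The dotted line is the background floor, and young and old points overlap only for Hsd11b1 among the genes shown.

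Among steroid and retinoid genes 5 of 26 fell, beside 1.20% of all named genes, and a few genes of lipid handling fell too. Hsd11b1, which regenerates active glucocorticoid in the proximal tubule and liver, fell 2.1-fold. Cyp7b1, which hydroxylates oxysterols and steroid precursors, and Fdx1, which passes electrons to mitochondrial P450 enzymes, fell too. Hsd3b2, a 3-beta-hydroxysteroid dehydrogenase, was at least 1.56-fold lower. The list also had 1 gene that rose, and its median was -0.10.

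Hsd11b1 read 14677, 28645, 21166, 17388 and 18973 in young controls 1 to 5 and 14936, 8104, 11242, 10568 and 5021 in old controls 1 to 5. Young control 1 lay below old control 1, and the other animals were in separate ranges. The change was -1.07 ± 0.26 (adjusted p = 0.0285), lost without young control 2, 3 or 5 or old control 2 or 5 (adjusted p up to 0.0842). Hsd11b2, the opposing enzyme of the collecting duct that inactivates glucocorticoid, had a change of -0.18 and did not pass. Hsd17b11 read 9779.9, 10312, 14603, 11672 and 18669 in young controls 1 to 5 and 6297, 6647, 5539, 7364 and 5647 in old controls 1 to 5, a fall of 1.01 ± 0.18 (adjusted p = 0.0035), and all young animals lay above all old ones. Fdx1 fell by 0.89 ± 0.18 (adjusted p = 0.00671), from a range of 7791 to 9833 in young to one of 3298 to 5862 in old controls.

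Cyp7b1 lay close to the floor, with 1 young and 3 old controls at it. It fell by 0.97 ± 0.23 (adjusted p = 0.026), with -1.31 among animals 1 to 3 and -0.47 among animals 4 and 5, and the call was lost without young control 1, 2 or 3 or old control 3, 4 or 5 (adjusted p up to 0.0801). For Hsd3b2 all 5 old controls were at the floor, while the young controls read 1702, 1729, 2017, 1921 and 1336 (adjusted p = 0.00347). Its related gene Hsd3b1 had a change of 0.04. The 1 rise of the list was that of Aldh1a1, which makes retinoic acid from retinal. Aldh1a1 read 1059.8, 1207, 929.9, 1586 and 1394 in young controls 1 to 5 and 1953, 2805, 2585, 3411 and 2746 in old controls 1 to 5, a rise of 1.07 ± 0.16 (adjusted p = 0.000841) with 2 of 5 young controls at the floor. The glucocorticoid-responsive genes Fkbp5 (0.17), Per1 (0.25) and Sgk1 (0.40) did not pass.

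Lpl, the lipase that frees fatty acids from circulating triglyceride, read 14818, 13627, 17140.2, 15232 and 18041 in young controls 1 to 5 and 6932, 7366, 8704, 8491 and 10299 in old controls 1 to 5. Its fall of 0.92 ± 0.17 (adjusted p = 0.00401) left a gap between the groups. Lpl was the 1 of 17 lipoprotein and lipid transport genes that passed. Apoe, the apolipoprotein E that macrophages also make, had the largest change of that list, 2.17 on the second table (adjusted p = 0.0647), and did not pass. G0s2, an inhibitor of fat breakdown in droplets, fell by 0.61 ± 0.15 (adjusted p = 0.0387, and 0.0554 with the replicate block) and was lost without young control 1, 2, 3 or 5, old control 2, 3, 4 or 5 or calorie-restricted mouse 2 (adjusted p up to 0.113). Lypla1, which removes fatty acids from lysophospholipids and proteins, fell by 0.67 ± 0.17 (adjusted p = 0.0398) and was lost without any young control, old control 1, 2 or 3 or calorie-restricted mouse 1 (adjusted p up to 0.108).

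In cholesterol and fatty acid synthesis, 1 of 12 tested genes fell, with a list median of 0.00. This was Idi1, which interconverts the isoprene units from which sterols are built. It read 1680.0, 2199, 1949.7, 1627 and 1520.5 in young controls 1 to 5 and 1206, 417, 756, 550.0 and 404 in old controls 1 to 5, and 4 of 5 old controls lay at the floor (a fall of 0.66 ± 0.12, adjusted p = 0.00253). Hmgcs1, an earlier enzyme of the same pathway, had a change of -0.52 ± 0.15 and did not pass (adjusted p = 0.0636, but 0.0173 with the replicate block, or 0.00544 with the number set as a term). Fdft1 (-0.07), Lss (0.37) and Fasn (0.50) did not pass and had no common sign. The promoter of Idi1 is shown because the sterol-sensing factor SREBP acts on this pathway through elements whose core reads TCACNCCAC. Its 250 bases before the start in RefSeq (GRCm38.p6, chr13:8885356-8885605, plus strand, upstream of Idi1) are printed 5′ to 3′, with matches to CCAAT, the box that the factor NF-Y binds, in capitals.
Idi1: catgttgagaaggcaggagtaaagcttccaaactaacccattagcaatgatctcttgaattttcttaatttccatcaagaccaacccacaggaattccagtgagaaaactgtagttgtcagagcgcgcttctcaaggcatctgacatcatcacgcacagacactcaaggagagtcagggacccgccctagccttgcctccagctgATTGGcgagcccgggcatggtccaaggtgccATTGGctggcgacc
The window held 2 CCAAT matches, both on the minus strand and so printed as ATTGG, and 0 matches of TCACNCCAC on either strand. Over all 32851 windows of this length in that table, 33.8% held CCAAT and 1.05% held TCACNCCAC on 1 of the strands.

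A few genes of the distal nephron and of hormone signalling fell. Klk1, renal kallikrein, the protease that releases kinin into the urine, fell 2.02-fold, and Klk1b9 and Klk1b16, proteases of the same gene cluster, fell as well. Kl, klotho, the co-receptor for the phosphate hormone FGF23, fell on 1 of 2 probe sets, and Calb1, the calcium buffer of the distal tubule, fell 1.59-fold. Defb1, an antimicrobial peptide of the distal tubule, also fell. Of 19 tested genes of the distal list (loop, distal tubule, collecting duct), 3 fell and 0 rose, with a median of -0.13. In the renin, angiotensin and kallikrein list 3 of 6 fell, all of them kallikreins. Klk1 counts in both lists, and the share of all named genes that fell was 1.20%. The kallikrein probe sets may share signal, so these may not be 3 separate falls.

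Klk1 read 26209, 42585, 46402, 50899.8 and 54364 in young controls 1 to 5 and 18631, 17044, 24158, 23002 and 24326 in old controls 1 to 5. Young control 1 was the lowest young animal, yet above every old one, and the fall was 1.01 ± 0.19 (adjusted p = 0.00487). Klk1b9 read 10361, 12456, 13444, 12585 and 14518 in young controls 1 to 5 and 6329, 6816, 6386, 8236 and 8158 in old controls 1 to 5, also without overlap, and fell by 0.82 ± 0.13 (adjusted p = 0.00109). Klk1b16 fell by 0.57 ± 0.15 on the second table (adjusted p = 0.0426, and 0.0556 with the replicate block), while on the first it had a change of -0.44 ± 0.18 and did not pass. The call on the second table was lost without young control 2, 3, 4 or 5, old control 2, 3, 4 or 5 or calorie-restricted mouse 1 (adjusted p up to 0.118). These kallikreins are closely related copies in 1 cluster, and the f in these probe set names marks probes that several members of a family can share, so the share of each gene in these values is uncertain.

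Since a probe set named for each of the 3 kallikreins fell, although these probe sets may share signal, the promoters of these genes are shown. Each is the 250 bases before the start in RefSeq (GRCm38.p6, plus strand, upstream of the gene), at chr7:44225110-44225359 for Klk1, chr7:43975811-43976060 for Klk1b9 and chr7:44137040-44137289 for Klk1b16. They are printed 5′ to 3′, and capitals mark the longest run of bases that all 3 hold, 13 bases.
Klk1: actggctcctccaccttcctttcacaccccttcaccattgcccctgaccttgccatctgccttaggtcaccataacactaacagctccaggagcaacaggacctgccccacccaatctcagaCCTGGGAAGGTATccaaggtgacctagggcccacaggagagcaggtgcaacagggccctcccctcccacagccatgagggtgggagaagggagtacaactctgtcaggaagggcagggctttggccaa
Klk1b9: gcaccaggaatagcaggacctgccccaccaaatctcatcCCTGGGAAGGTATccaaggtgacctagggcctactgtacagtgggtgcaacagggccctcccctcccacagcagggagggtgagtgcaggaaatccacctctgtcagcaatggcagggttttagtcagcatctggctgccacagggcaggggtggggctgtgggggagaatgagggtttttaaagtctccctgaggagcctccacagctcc
Klk1b16: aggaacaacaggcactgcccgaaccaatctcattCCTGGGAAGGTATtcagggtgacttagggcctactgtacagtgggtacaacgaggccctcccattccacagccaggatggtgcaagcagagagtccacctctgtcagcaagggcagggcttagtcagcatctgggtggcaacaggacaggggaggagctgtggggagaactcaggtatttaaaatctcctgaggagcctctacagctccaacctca
In local alignments of these windows, Klk1b9 and Klk1b16 were identical at 85.1% of 241 aligned bases, Klk1 and Klk1b9 at 83.1% of 166, and Klk1 and Klk1b16 at 80.6% of 155. The shared run stands 128 bases before the window's end in Klk1, and 211 and 216 bases before it in the others.

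Kl on the probe set that passed read 2960.1, 2467, 2659, 2591 and 2145 in young controls 1 to 5 and 1496, 1543, 970.3, 1418 and 1078 in old controls 1 to 5. That probe set fell by 0.95 ± 0.16 (adjusted p = 0.00188), and 2 of 5 old controls lay at the floor. On its other probe set the groups did not overlap either, with young values between 6936 and 8309 and old values between 2667 and 5566, but the change of -0.73 ± 0.19 did not pass (adjusted p = 0.0508, but 0.0362 with the number set as a term). Calb1 read 3738, 3349, 3152, 2974 and 2346 in young controls 1 to 5 and 1553, 2200.0, 1747, 1930.0 and 2323 in old controls 1 to 5. The lowest young and highest old value nearly met, and the fall of 0.67 ± 0.17 (adjusted p = 0.0374, and 0.0551 with the replicate block) had parts of -0.91 among animals 1 to 3 and -0.32 among animals 4 and 5. Defb1 fell by 0.68 ± 0.17 (adjusted p = 0.039), from a range of 9852 to 13333 in young to one of 4511 to 9239.5 in old controls. The call of Calb1 was lost without young control 1, 2, 3 or 4 or old control 1, 3 or 4 (adjusted p up to 0.0911), and that of Defb1 without young control 2, 3, 4 or 5, old control 1, 2 or 5 or calorie-restricted mouse 1 or 2 (adjusted p up to 0.103).

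Other distal genes did not pass. S100g, the small calcium-binding protein calbindin-D9k, had a change of -0.66 ± 0.18 (adjusted p = 0.0649, but 0.0331 with the number set as a term), and Egf, the growth factor made in the distal convoluted tubule, -0.39 ± 0.11 (adjusted p = 0.0549, but 0.0323 with that term), and all old values of Egf lay below all young ones. The thiazide-sensitive transporter Slc12a3 had a change of -0.06. By the brightest probe set of each gene, 0 of 26 tested proximal tubule genes fell and 1 rose; the list holds Kl, whose other probe set fell as given above. The rise was that of Alpl, the tissue-nonspecific alkaline phosphatase, by 0.95 ± 0.25 (adjusted p = 0.0405, and 0.0594 with the replicate block). Its call was lost without young control 2, 3 or 5, old control 2, 3, 4 or 5 or calorie-restricted mouse 1, 2, 4 or 5 (adjusted p up to 0.113). Of all 60 tested solute carriers 0 passed in either direction, and their median was -0.07. They ran from Slc22a30 at -0.99 (adjusted p = 0.0901) to Slc22a17 at 0.89 (adjusted p = 0.13). Guca2b, uroguanylin, a peptide that promotes salt excretion, rose by 0.69 ± 0.18 (adjusted p = 0.0405), from a range of 4557 to 7988 in young to one of 9170.3 to 13454 in old controls, and was lost without young control 3, 4 or 5, any old control or calorie-restricted mouse 1, 2 or 5 (adjusted p up to 0.111).

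Of 32 tested genes of amino acid and creatine metabolism 3 fell and 0 rose, beside 1.20% and 1.50% of all named genes. Inmt, a methyltransferase of indole amines, fell 2.46-fold. Odc1, ornithine decarboxylase, the first step of polyamine synthesis, fell 2.05-fold, and Gatm, the first enzyme of creatine synthesis, 1.83-fold. The list median was -0.19. Of the 11 tested androgen-regulated genes 3 fell, Inmt, Odc1 and Hsd17b11, and the median was -0.30. Kap, the classical member of that list, stood at the values given above.

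Inmt read 72064, 84724, 84202, 120379.6 and 93487 in young controls 1 to 5 and 38811, 13999, 52318, 51980.5 and 43225 in old controls 1 to 5. Old control 2 lay far below the other old controls, and no old control reached the lowest young one. Its change was -1.30 ± 0.29 (adjusted p = 0.0186), lost without young control 4 (adjusted p up to 0.0536). Odc1 read 4901, 5905, 6148, 4813 and 5908 in young controls 1 to 5 and 2585, 3181, 3011, 2571 and 2183 in old controls 1 to 5, with a wide gap between the groups, and its fall of 1.04 ± 0.14 had the smallest adjusted p of any named gene that fell, 0.000292. Gatm read 4210.4, 4426, 4744, 4105 and 3408 in young controls 1 to 5 and 2270.1, 2120.0, 1836, 2622 and 2626 in old controls 1 to 5 and fell by 0.87 ± 0.16 (adjusted p = 0.00446), with -1.11 among animals 1 to 3 and -0.51 among animals 4 and 5. Among the others of this list, the spermine-related Sat1 (-0.47), Srm (-0.15) and Oaz1 (-0.44), which inhibits Odc1, did not pass.

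Several falls lay outside the lists. C1qtnf3, a secreted relative of complement C1q, fell by 1.25 ± 0.22 (adjusted p = 0.00321), from a range of 2264 to 4705 in young to one of 991 to 2351 in old controls. Cmpk1, which phosphorylates CMP and UMP, fell by 1.03 ± 0.18 (adjusted p = 0.00278). Upp2, a uridine phosphorylase, was at least 1.59-fold lower, since all 5 old controls lay at the floor (adjusted p = 0.0238). Both act on pyrimidine nucleotides or nucleosides. Fhl1, a muscle-type LIM protein, fell by 0.85 ± 0.22 on 1 probe set (adjusted p = 0.0387) and had a change of -0.43 ± 0.14 on another that did not pass. Tmem30a, a subunit of lipid flippases, fell by 0.91 ± 0.24 on 1 probe set (adjusted p = 0.0486) and had a change of -0.57 ± 0.26 on the other. Smaller falls were those of Mettl26 (-0.75), Sar1b (-0.65), a coat GTPase of vesicles that leave the endoplasmic reticulum, Znrf2 (-0.57), a ubiquitin ligase, and Spg21 (-0.54). The call of Upp2 was lost without young control 2, 3 or 5 or old control 3 or 4 (adjusted p up to 0.0751), that of Fhl1 without young control 1, 2, 3 or 4 or old control 1, 2, 4 or 5 (adjusted p up to 0.105), and that of Sar1b without young control 1, 2, 3 or 5 or old control 2, 3 or 5 (adjusted p up to 0.0971). That of Tmem30a was lost without young control 1, 2, 3 or 5, old control 2, 3, 4 or 5 or calorie-restricted mouse 1, 2, 3 or 5 (adjusted p up to 0.134), that of Znrf2 without young control 3 or 5 (adjusted p up to 0.0542), and that of Spg21 without young control 3, 4 or 5 or old control 2, 3, 4 or 5 (adjusted p up to 0.0723).

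Several macrophage genes and a chemokine rose. Lyz2, lysozyme of myeloid cells, rose 3.19-fold and Ctss, the cathepsin that trims the class II chaperone, 3.06-fold. C1qb, a subunit of complement C1q made by macrophages, rose on all 3 of its probe sets. Cx3cl1, fractalkine, the membrane chemokine that attracts monocytes, rose 2.88-fold. Of 14 tested macrophage and myeloid genes 5 rose and 0 fell, beside 1.50% and 1.20% of all named genes. The list median was 0.33. The summed intensity of these 14 lay between 63054 and 76230.0 in young and between 74374 and 95836 in old controls. The defining markers Adgre1, Csf1r, Itgb2 and Mrc1 were on the arrays and did not reach the filter.

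Lyz2 read 3519, 6141, 5009, 3994 and 2293 in young controls 1 to 5 and 14643, 9516, 11321, 18461 and 11244 in old controls 1 to 5. The lowest old control lay above the highest young one, and the rise was 1.67 ± 0.30 (adjusted p = 0.00319), with 1.29 among animals 1 to 3 and 2.25 among animals 4 and 5. Ctss read 1200.4, 1239, 1433, 639.5 and 1124 in young controls 1 to 5 and 4173, 3444, 3334, 4371 and 3382 in old controls 1 to 5, a rise of 1.61 ± 0.17 (adjusted p = 2.42e-05). Young animals stood at or near the floor for Ctss, and old ones stood close together. Cx3cl1 read 784, 1156, 731, 1024 and 1119.6 in young controls 1 to 5 and 2859, 3706, 2379, 3537 and 3839 in old controls 1 to 5, with 3 of 5 young controls at the floor, and rose by 1.52 ± 0.15 (adjusted p = 1.2e-05). Among named genes outside the immunoglobulin and MHC genes it had the smallest adjusted p, and it passed in all 33 alternatives.

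C1qb on the first table read 2356, 2503, 2885, 1525 and 1372 in young controls 1 to 5 and 3302, 4278, 4656, 3906 and 3496 in old controls 1 to 5, a rise of 0.93 ± 0.20 (adjusted p = 0.0127). On the second table it rose by 0.79 ± 0.17 on 1 probe set and was at least 1.91-fold higher on the other, where no young control exceeded the floor. Laptm5, a lysosomal protein of blood cells, rose by 0.87 ± 0.20 (adjusted p = 0.0219), and Fcer1g, the signalling chain of Fc receptors, by 0.73 ± 0.19 (adjusted p = 0.039). The call of Laptm5 was lost without young control 3 or 5 or old control 3, 4 or 5 (adjusted p up to 0.0679), and that of Fcer1g without young control 1, 2, 4 or 5, old control 1, 2, 3 or 4 or calorie-restricted mouse 1 (adjusted p up to 0.106). Cd68 (0.33), Cd14 (-0.19) and Lgals3 (0.02), also on this list, did not pass. In the T and NK cell list 0 of 6 tested genes passed, with Cd3e at 0.05 and the pan-leukocyte Ptprc at 0.22, and in the chemokine, cytokine and adhesion list Cx3cl1 was the 1 of 10 that did.

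Of 10 tested complement and acute phase genes 2 rose, Cp and Serping1. Cp, ceruloplasmin, the copper ferroxidase, read 2117, 2024, 1695, 1789.8 and 1639 in young controls 1 to 5 and 3579.6, 5163, 2921, 5666 and 3450.5 in old controls 1 to 5. The rise was 1.07 ± 0.20 (adjusted p = 0.0035), and 3 of 5 young controls lay at the floor. Serping1, the inhibitor of the C1 protease, read 4939, 5397, 5046, 4668 and 4464 in young controls 1 to 5 and 9328, 8998, 8508, 10184 and 6092 in old controls 1 to 5 and rose by 0.80 ± 0.14 (adjusted p = 0.00282) without overlap. All 10 tested genes of the complement and acute phase list read above 0, with a median of 0.41, and these 2 passed. Over all named genes 50.2% read above 0 and 1.50% rose. Clu, clusterin, a secreted chaperone, had a change of 0.85 (adjusted p = 0.0724), and Lcn2, lipocalin 2, an injury marker of the tubule, 0.59 (adjusted p = 0.103). For Lcn2 all young controls were at the floor and all old controls above it. Lcn2 passed with the floor at 0.5 times (adjusted p = 0.00135) and with the asinh transform (0.00331).

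Stat3, the transcription factor through which interleukin 6 acts, read 3829.5, 3612, 3908, 3900.3 and 3538 in young controls 1 to 5 and 5184, 6927, 6099, 6686 and 4853 in old controls 1 to 5. The young values were tightly grouped, and the rise was 0.65 ± 0.12 (adjusted p = 0.00524). Another probe set had a change of 0.55 ± 0.27 and did not pass. Pigr, the receptor that carries IgA and IgM across epithelia, rose by 0.82 ± 0.18 (adjusted p = 0.0155), from a range of 4969 to 7114 in young to one of 7876 to 12926 in old controls, and its other probe set had a change of 0.70 ± 0.20 (adjusted p = 0.0676). Lgals3bp, a secreted galectin ligand, rose by 0.89 ± 0.17 (adjusted p = 0.00485), with 3 of 5 young controls at the floor. Of the immunoglobulin and MHC genes that rose, Igha, the heavy chain of IgA, stood at 4.54 ± 0.48, the joining chain gene Jchain at least 7.35-fold higher, and H2-Ab1, a class II chain, at 2.04 ± 0.25.

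**Figure D4:**
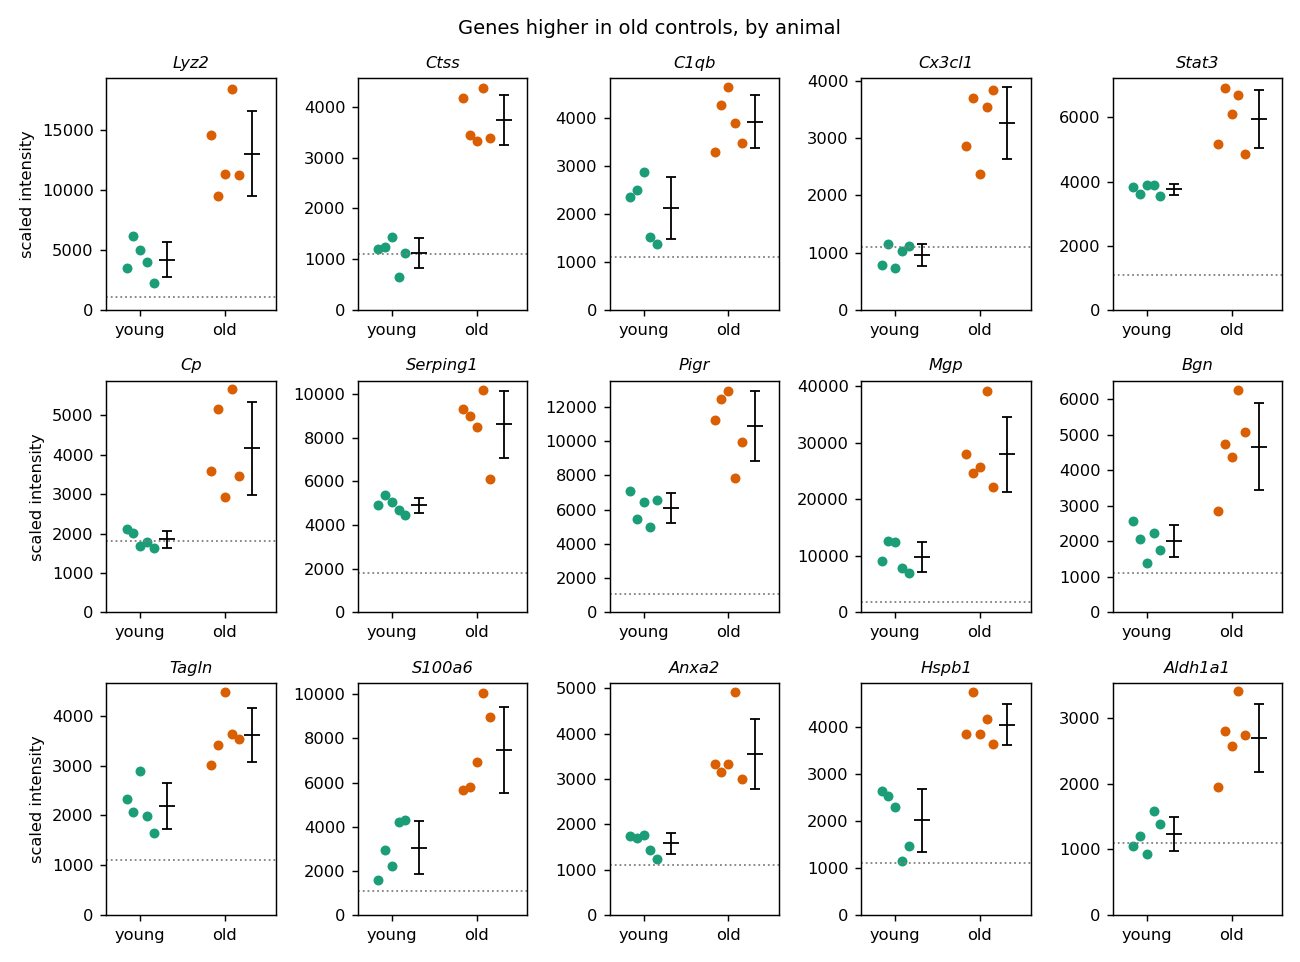
Scaled intensity (vertical axis, linear, from 0) of 15 genes that rose, with 1 point per animal in the order of its number and the group mean with its SD as a black bar. The dotted line is the background floor, and for all 15 genes the lowest old control lies above the highest young one.

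Some matrix genes and a few genes of smooth muscle and actin rose, while most members of both lists did not pass. Mgp, matrix Gla protein, an inhibitor of calcification, rose 2.88-fold. The small proteoglycans Bgn, biglycan, and Dcn, decorin, which bind collagen and TGF-beta, rose 2.31-fold and 1.78-fold. Thbs1, thrombospondin, an activator of TGF-beta, rose 1.63-fold. Of 20 tested collagen and matrix genes 4 rose, 0 fell and 19 read above 0, with a median of 0.35. The shares over all named genes were 1.50% that rose and 50.2% above 0. The median was 0.38 in numbers 1 to 3 and 0.28 in numbers 4 and 5.

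Mgp read 9085, 12537, 12388, 7874 and 6924 in young controls 1 to 5 and 28010.4, 24711, 25679.5, 39065 and 22097 in old controls 1 to 5. Old control 4 was the highest, and the rise was 1.53 ± 0.22 (adjusted p = 0.00049) with no overlap of the groups. Bgn read 2564, 2066, 1392, 2241 and 1755 in young controls 1 to 5 and 2870.0, 4731, 4378, 6262 and 5093 in old controls 1 to 5, a rise of 1.21 ± 0.29 (adjusted p = 0.0272). Old control 1 lay just above the young range for Bgn. Dcn rose by 0.83 ± 0.21 (adjusted p = 0.0336) and Thbs1 by 0.70 ± 0.19 (adjusted p = 0.0486, and 0.0509 with the replicate block). The call of Bgn was lost without young control 2, 3 or 5 or old control 2, 3, 4 or 5 (adjusted p up to 0.0857), that of Dcn without young control 1, 3 or 5 or old control 1, 2, 3 or 4 (adjusted p up to 0.098), and that of Thbs1 without young control 2, 3, 4 or 5, old control 2, 3, 4 or 5 or calorie-restricted mouse 1, 2 or 5 (adjusted p up to 0.132).

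The collagens themselves did not pass. Of 12 tested collagen chains 11 read above 0, with a median of 0.24, and 0 were called. The basement membrane chains Col4a1 and Col4a2 had a change of 0.48 and 0.65, and the fibrillar chain Col3a1 0.50. The probe sets of Col1a1 read 0.45, 0.18 and -0.01, each with at least 2 animals of a group at the floor. Tgm2, transglutaminase 2, which cross-links matrix proteins, rose by 0.83 ± 0.21 (adjusted p = 0.0337), from a range of 1400.0 to 3387 in young to one of 2941 to 4799.9 in old controls, and was lost without young control 2, 3 or 5 or old control 2, 3, 4 or 5 (adjusted p up to 0.101). Of 11 tested matrix proteases and their inhibitors 0 passed, with a median of -0.17.

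In the smooth muscle and actin list 3 of 25 tested genes rose, 0 fell and 23 read above 0, with a median of 0.33. The shares over all named genes were 1.50% that rose and 50.2% above 0. Tagln, transgelin of smooth muscle, read 2338, 2069.6, 2886, 1982 and 1655 in young controls 1 to 5 and 3008, 3413, 4485, 3629 and 3527 in old controls 1 to 5, a rise of 0.74 ± 0.17 (adjusted p = 0.0178). Msn, moesin, which ties actin to the membrane of leukocytes, endothelium and other cells, rose by 0.77 ± 0.16 on the first table (adjusted p = 0.0118) and had a change of 0.25 ± 0.15 on the second, where 4 young and 3 old controls lay at the floor. Tmsb10, an actin-binding peptide, was at least 1.78-fold higher (adjusted p = 0.00113), with every young control at the floor. Other contractile genes did not pass, among them Acta2, smooth muscle actin (0.66 ± 0.25, adjusted p = 0.207, but 0.0154 with the replicate block, or 0.0185 with the number set as a term), and Tpm1 (0.47 ± 0.15, adjusted p = 0.11, but 0.0323 with the number set as a term). The call of Tagln was lost without young control 5 or old control 3 (adjusted p up to 0.057).

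Some markers of injured or regenerating tubules rose and others did not. S100a6, a calcium-binding protein of dividing and injured epithelium, read 1580.3, 2925, 2219, 4208 and 4295 in young controls 1 to 5 and 5674, 5785, 6927, 10049 and 8984 in old controls 1 to 5. The rise was 1.36 ± 0.27 (adjusted p = 0.00628), it passed in all 32 alternatives in which it could be tested, and the groups did not overlap. Anxa2, a calcium-dependent membrane protein, read 1731, 1690.4, 1770.0, 1441 and 1244 in young controls 1 to 5 and 3317, 3160.1, 3338, 4922 and 2996 in old controls 1 to 5 on the first table and rose by 1.16 ± 0.21 (adjusted p = 0.00347). On the second table it had a change of 0.95 ± 0.25 (adjusted p = 0.0508, but 0.0134 with the replicate block, or 0.00712 with the number set as a term). Prom1, prominin 1, a membrane protein of epithelial progenitors, rose by 0.92 ± 0.18 (adjusted p = 0.00671), from a range of 1602 to 2032 in young to one of 2428 to 4536 in old controls. By the brightest probe set of each gene, 3 of 23 tested genes of the injury and repair list rose, S100a6, Prom1 and Tmsb10, and 0 fell, with a median of 0.20. The share of all named genes that rose was 1.50%. Krt8 (-0.05), Vim (0.36), Lgals1 (0.03) and Cdkn1a (-0.24), the p21 cell cycle inhibitor, did not pass. Other S100 genes tested, S100a4 (0.19) and S100a10 (0.25), did not pass either.

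Hspb1, a small heat shock protein of stressed epithelium and muscle, read 2639, 2521, 2300.3, 1139 and 1468 in young controls 1 to 5 and 3851, 4745, 3839, 4157 and 3626 in old controls 1 to 5. It rose by 1.07 ± 0.21 (adjusted p = 0.00671), with 0.73 among animals 1 to 3 and 1.59 among animals 4 and 5, and was the 1 of 40 chaperones that passed. Its partner Cryab had a change of -0.02, and the inducible folding factors Hspa5 and Hspd1 had a change of 0.25 and -0.39. Ckb rose on 1 of its 3 probe sets, at the value given above (adjusted p = 0.00713). Wwc1, a scaffold of the Hippo pathway also found in podocytes, rose by 0.95 ± 0.18 (adjusted p = 0.00521), with 4 of 5 young controls at the floor. Psd, an exchange factor for ARF6, rose by 1.28 ± 0.33 (adjusted p = 0.0401, and 0.05 with the replicate block), with 3 of 5 young controls at the floor. Smaller rises were those of Kif1c (0.73), a kinesin, Rab31 (0.51), a trafficking GTPase, Rpl8 (0.51), and Crip1, a LIM protein, at least 1.37-fold on the first table. On the second table Crip1 had a change of 0.27 and did not pass (adjusted p = 0.551 by limma). The call of Psd was lost without young control 1, 3, 4 or 5, old control 1, 2, 3 or 5 or calorie-restricted mouse 1 or 5 (adjusted p up to 0.117), that of Kif1c without young control 2, 4 or 5, old control 2, 3 or 5 or calorie-restricted mouse 1 or 4 (adjusted p up to 0.109), that of Rpl8 without young control 1, 2, 4 or 5, old control 3, 4 or 5 or calorie-restricted mouse 1, 2, 4 or 5 (adjusted p up to 0.123), and that of Crip1 without any young control, old control 2, 3, 4 or 5 or calorie-restricted mouse 1, 2, 4 or 5 (adjusted p up to 0.0938). With the replicate block Rpl8 and Crip1 had adjusted p values of 0.0551 and 0.0551.

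Many other gene groups had few or no members called. Over all named genes 1.50% rose and 1.20% fell, and at such shares a short list would often hold no called gene. In the list of growth arrest, p53 targets and apoptosis 0 of 15 passed, with Cdkn2c at 0.20, Mdm2 at 0.03 and the survival gene Bcl2l1 at 0.59 (adjusted p = 0.0511). Cell cycle genes had 0 of 11, immediate early and Id genes 0 of 13, and growth factors, receptors and binding proteins 0 of 27 called. Of 38 ribosomal protein genes Rpl8 alone rose, and 0 of 30 translation factors and 0 of 44 proteasome and ubiquitin genes passed. The 27 proteasome subunits had a median of -0.14. In the lysosome and proton pump list Ctss, described above, was the 1 of 32 that passed, and the cathepsins Ctsb (0.01), Ctsd (0.13) and Ctsl (-0.26) did not. Glucose metabolism had 0 of 19 and the P450 and conjugation list 0 of 13 called. The latter count does not hold Cyp7b1 or the probe set of Cyp4a31 that passed, both given above. In addition 0 of 4 endothelial and 0 of 5 podocyte and glomerular genes passed. The endothelial receptor Kdr had a change of -0.17 ± 0.24. At an unadjusted p under 0.05, 669 of the 4433 probe sets passed.

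**Figure D5:**
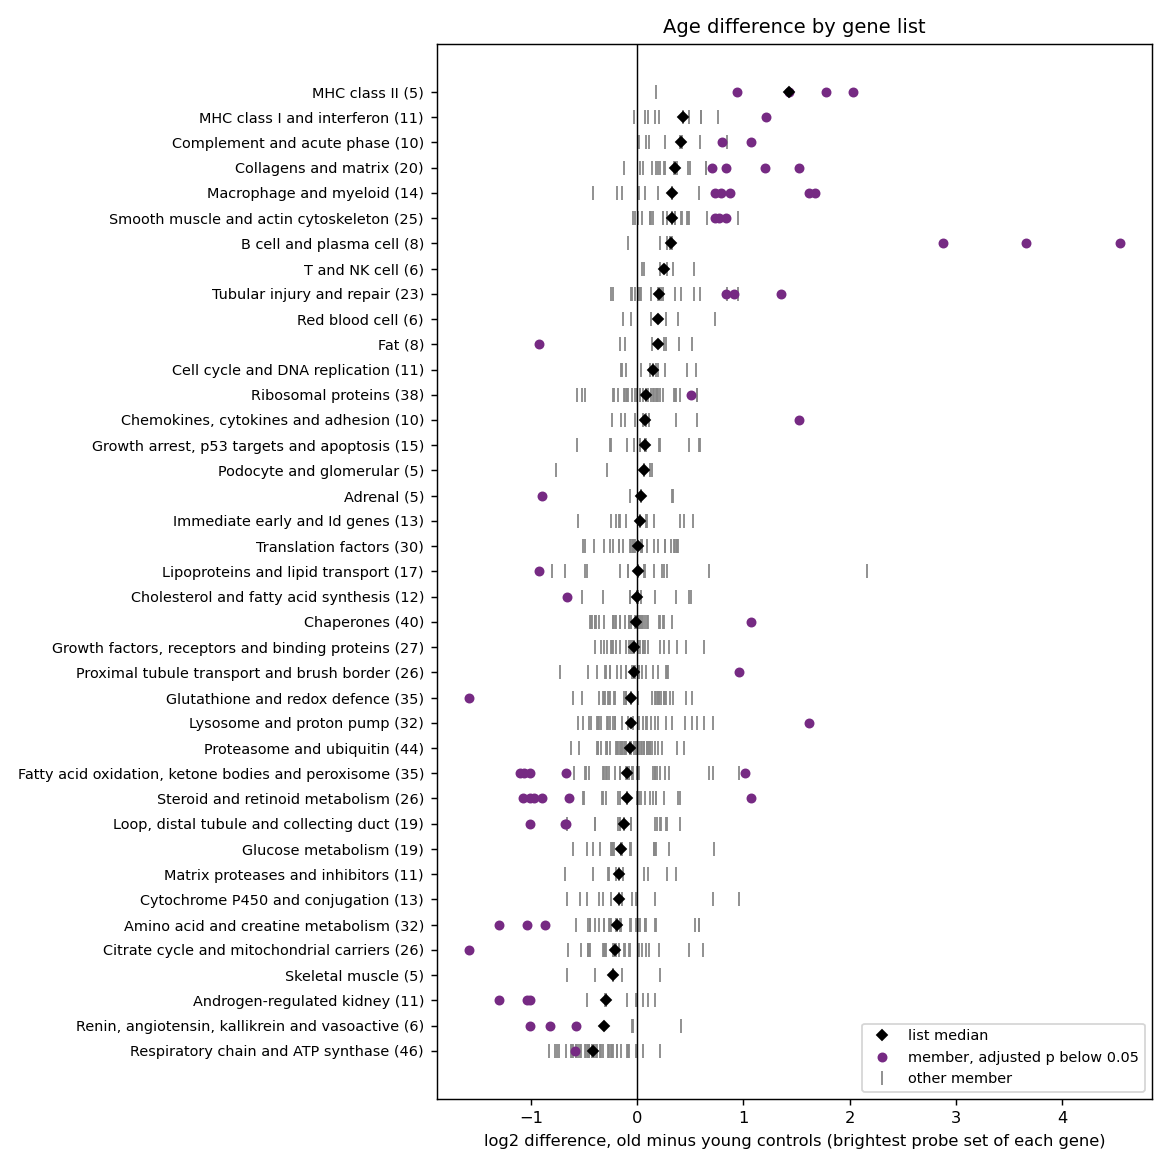
Change with age (horizontal axis, log2, old minus young) of the members of 39 gene lists with at least 5 tested genes, with the number tested in brackets, each gene by its brightest probe set. Purple points passed, grey ticks did not, and black diamonds are list medians, which run from -0.41 for the respiratory chain to 1.43 for MHC class II.

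Most calls of named genes depended on the settings. Of the 88 named probe sets that passed, 12 kept the call in every alternative, which include fits with fewer samples. In 0 cases was the direction reversed. With the old and young controls alone in the fit, 116 probe sets passed, 76 higher and 40 lower, and 21 named calls were lost. These, with Acadm standing for its second-table probe set here and below, were the calls of Acad9, Acadm, Alpl, Calb1, Crip1, Cyp7b1, Dcn, Defb1, Fcer1g, G0s2, Guca2b, Hsd11b1, Inmt, Kif1c, Psd, Rpl8, Sar1b, Tgm2, Tmem30a, Upp2 and Znrf2 (adjusted p between 0.05 and 0.111). With the floor doubled, the calls of Aldh1a1, C1qtnf3, Calb1, Ckb, G0s2, Kif1c, Laptm5, Prom1, Psd, Thbs1, Vnn1 and Wwc1 (adjusted p between 0.0518 and 0.768) were lost, and with the floor at 0.5 times those of Acad9, Acadm, Alpl, Calb1, Defb1, Fcer1g, Fhl1, G0s2, Guca2b, Kif1c, Klk1b16, Lypla1, Psd, Rpl8, Sar1b, Thbs1, Tmem30a and Vnn1 (adjusted p between 0.0547 and 0.111). The asinh transform, which keeps values under the floor, ended those of Acad9, Acadm, Alpl, Calb1, Fcer1g, G0s2, Guca2b, Kif1c, Klk1b16, Lgals3bp, Psd, Rpl8, Spg21, Thbs1, Tmem30a, Vnn1 and Znrf2 (adjusted p between 0.0513 and 0.0866). Quantile normalization ended those of Acadm, G0s2, Guca2b, Klk1b16, Ndufb3, Sar1b, Tgm2, Thbs1 and Vnn1 (adjusted p between 0.0519 and 0.18). Without a filter on low values, which adds dim probe sets to the adjustment, those of Acad9, Acadm, Acat1, Alpl, Bgn, Calb1, Cyp7b1, Dcn, Defb1, Fcer1g, Fhl1, G0s2, Guca2b, Hsd11b1, Inmt, Kif1c, Klk1b16, Laptm5, Ly6e, Lypla1, Psd, Sar1b, Tgm2, Thbs1, Tmem30a and Vnn1 (adjusted p between 0.0587 and 0.171) were lost. Other probe sets near the threshold gained a call. With the floor doubled, Egf, Hmgcs1, Cycs, S100g and the other probe set of Kl passed (adjusted p between 0.0229 and 0.048). A fit with the number set (1 to 3, or 4 and 5) as a term called more probe sets, 253 in all. Where its adjusted p stands beside a gene above, the gene passed in that fit. For other genes named as not passing, such as Ndufa5, Apoe and Clu, the outcome of that fit is not given here.

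Probe sets without a gene name made up 62 of the 150 calls, 44 higher and 18 lower. Among the 44, 29 carry names that begin with ET on the second table, where 88 such probe sets were tested, and in 20 of the 29 every young control was at the floor. The largest rise of any probe set, 4.99, was that of an unnamed one on the second table. Among the 18 that fell, 1 of the second table went from 67991 ± 10961 in young to 34011 ± 6605 in old controls (SD, n = 5), with an adjusted p of 0.00268 by limma.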

How the data were processed

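The deposited values are intensities per probe set, whole numbers of which part are negative, and their trimmed means differ little between arrays (1463 to 1483 on the first table, 1503 to 1504 on the second). Which scanner software, background step and scaling made them is not given in the sources used here. Arrays of a table were brought to 1 shared trimmed mean (2% trimmed at each end), floored at the root mean square of the table's negative values, and log2 transformed. Probe sets above the floor on at least 5 of the 15 arrays of a table were kept, which left 2609 and 1824. The 122 control rows and 16 other rows with missing values stayed out. Names came from the platform annotation, updated through RefSeq for 7544 probe sets: 7561 had 1 symbol, 224 several and 5394 none. Old was compared with young with limma 3.58.1 in R 4.3.3 over all 3 groups (12 residual degrees of freedom), two-sided, with Benjamini-Hochberg adjustment over both tables. The fit was tested on simulated normal log2 values of the 4433 probe sets with known changes. It recovered 64% of 100 changes of size 1 and 82% of 100 of size 2. Of its 159 calls, 13 (8.18%) were false. Scaling, the filter and the exchanged class were not part of that test, and the number of arrays limits the precision.

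The deviations of same-numbered young and old samples correlated with r between 0.221 and 0.496 in all 5 pairs. Yet only 2 of the 15 samples of the 3 groups correlated best with a sample of their own number in another group. The numbers were treated as pairs in an alternative fit only. Its adjusted p stands beside each named call that it ended, and beside Hmgcs1, Acta2 and the second probe set of Anxa2, which gained a call. The pairing comes from the data, since the labels say nothing of it, and it follows the split of numbers 1 to 3 from 4 and 5. Genes were named by a rule: the 20 largest changes in each direction, up to 5 members per list that passed, and fixed kidney markers. The other genes that passed, and the list members that did not pass, were named after their values were seen. The genes, lists and tests were chosen with earlier results of these data known. Figures were drawn with matplotlib 3.10.9. Alternatives covered scaling, floor, transform, filter, moderation, groups in the fit, tables, probe set classes, the replicate block, the number sets and leaving out each sample.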

Additional observations from a re-analysis of the deposited data

Results flagged for a closer look

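Of the 180 groups of 5 values examined, 12 held a sample whose gap to its neighbour, as a share of the group's range, exceeded 0.71. The shares were taken on log2 values after the floor, while the values printed beside them are scaled intensities. Chance flags about 1 group in 20 for normal values without ties, and values at the floor are tied. Among genes that fell, Inmt had such a low value in old control 2 (share 0.773, 13999 against 38811 to 52318 in the other old controls). Idi1 had a high value in old control 1 (1.0, since the other old controls lay at the floor, at 1206 against 404 to 756), and so had Klk1b16 (0.762, 2875 against 2251 to 2386). Among genes that rose, Anxa2 was high in old control 4 (0.782, 4922 against 2996 to 3338), and Jchain in old control 1 (0.723, 9794 against 7514 to 8087). Lgals3bp was high in young control 5 (0.863, 2058 against at most 1847), and Wwc1 in young control 1 (1.0, 1273 against 803 to 1059, all under the floor).

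The other flagged genes did not pass the age test. Slc12a1 was low in old control 4 (0.860, 15446 against 19697 to 20494). Col1a1 on 1 probe set was high in young control 4 (0.790, 1887 against at most 1235) and in old control 4 (0.791, 1852 against at most 1229). Cd3e, a T cell receptor chain, was high in old control 3 (0.711, 1906 against at most 1292). Cd79b, a B cell receptor chain, was high in young control 5 (0.738, 1450 against at most 1184), where the other young controls lay near or below the floor.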

How the results depend on the processing

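The 150 calls (96 higher, 54 lower) became 73 (41 and 32) with the first table only and 11 (3 and 8) with all probe sets marked i, f, s or r left out; both test fewer probe sets. With the exchanged class kept in they became 233, with 98 lower. With the number set as a term they became 253 (145 and 108). Numbers 1 to 3 alone gave 85 (60 and 25) and numbers 4 and 5 alone 49 (42 and 7), both with fewer samples. Keeping probe sets above the floor on at least 10 arrays left 63 higher. Leaving out 1 sample gave between 108 and 174 calls, between 78 and 103 higher and between 30 and 72 lower. With the replicate block there were 174 (115 and 59), of which 136 were among the 150. The block ended 14 of the 150 calls, 10 of them of named probe sets, whose values stand beside them. Among the calls it added were those of Hmgcs1, Acta2 and the second probe set of Anxa2, and most others that it added are not listed here.

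Over the 88 named probe sets that passed, 33 alternatives gave 2783 values. Of these, 2293 kept direction and side of the threshold, 490 kept the direction but not the call, and 0 reversed. In 12 probe sets the call held in every alternative run. The alternatives that ended most calls were numbers 4 and 5 alone (64) and numbers 1 to 3 alone (52), then leaving out young control 3 (27), no filter (26) and leaving out young control 5 (26). Quantile normalization ended 9. Where no cause is named it was not tested. Signal over background limits the dim genes: for those with a group at the floor the size of the change is a bound.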

Other observations

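Some further families were measured and described by value only. Of 9 tested keratins 7 had changes above 0, with a median of 0.17 and 0 called, from Krt32 at -0.19 to Krt17 at 0.44. Of 5 annexins 4 had changes above 0. The 8 subunits of the proton pump had a median of -0.22, with 6 below 0 and 0 called. Ribosomal proteins of the large subunit had a median of 0.06 over 25 genes, and those of the small subunit 0.14 over 12. Erdr1, whose repeats make its probe sets hard to assign, had changes of -1.44 ± 0.44 and -1.20 ± 0.44 on its 2 probe sets, adjusted p of 0.099 and 0.192 by limma, with wide spread among young controls.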
